A study of Mus musculus with 12 samples.

Results

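The genes described here are the S6 kinase genes and the core of the mTOR pathway in the mouse amygdala, 10 genes of the 47729 in the deposited table. They are Rps6kb1, Rps6kb2, Mtor, Rptor, Rictor, Eif4ebp1, Eif4ebp2, Tsc1, Tsc2 and Akt1, found by matching each symbol to its Ensembl identifier in GENCODE M21. All 10 were in the table and all 10 passed the filter of at least 10 reads in total over 11 mice, as did 26963 genes. The set was chosen with results of these libraries in view, since Rps6kb2 was selected on the same comparison of anxiety groups, so its values by group are given below as a description.

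The study put C57/BL6 mice, an inbred strain, through 3 psychometric tests and then sequenced 1 amygdala library per mouse. All 12 mice were female and of matched age, with no engineered allele or drug named in the labels, and both amygdalae were taken after rapid decapitation. The elevated plus maze (EPM) gave the percentage of time in the open arms and the total entries, and the light/dark test (LD) gave the percentages of time and of distance in the light. The social interaction test (SIT) gave the ratio of time beside a stranger mouse to time in the surrounding zone at 3, 5 and 10 min. The predicted anxiety state of the labels divides 11 mice into less anxious (n = 3, mice 3, 7 and 12), anxious (n = 4, mice 1, 4, 8 and 11) and more anxious (n = 4, mice 2, 6, 9 and 10). These states were cut from the second principal component (PC2) of these same libraries, a component taken because it tracked the EPM and LD measures, so a gene that varies along PC2 differs between the groups by construction. Mouse 5 has no state and enters no group, and the study left its library out as an outlier in a principal component analysis of expression. Estimated counts per library ran from 31745630 to 45142355 in the 11 mice, and levels are given as CPM, the count of a gene scaled by the total of its library, with edgeR's TMM factors.

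The mTOR kinase works in a complex with raptor, encoded by Rptor, and in another with rictor, encoded by Rictor. Insulin and growth factor signals reach it through AKT, which restrains the brake formed by the Tsc1 and Tsc2 products, and the raptor complex then phosphorylates the S6 kinases and the eIF4E-binding proteins to raise translation. In neurons the pathway is known for its part in protein synthesis at synapses and in long-lasting plasticity. All of these steps are controlled by phosphorylation, which mRNA levels do not measure.

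Rps6kb1 and Rps6kb2 encode the paralogous kinases S6K1 and S6K2, and their values can be set side by side only if reads of 75 bases tell them apart. The most similar coding stretches of that length are shown for this reason, read from GENCODE M21 transcripts (GRCm38), with bases that differ between the genes in capitals. Each spans a junction between exons 7 and 8, so the genomic positions enclose an intron.
Rps6kb1, chr11:86513612-86516139, minus strand: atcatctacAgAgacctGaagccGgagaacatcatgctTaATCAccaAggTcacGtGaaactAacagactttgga
Rps6kb2, chr19:4159068-4159275, minus strand: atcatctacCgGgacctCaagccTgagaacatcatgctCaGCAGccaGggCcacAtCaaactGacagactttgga
Of the 75 bases 61 were identical (81.3%), and 14 differed. The longest run shared by the longest coding sequences of both genes was 14 bases, and no word of 31 bases occurred in transcripts of both.

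The eIF4E-binding protein genes Eif4ebp1 and Eif4ebp2 form the other paralogous pair, and their closest coding stretches are shown in the same way. Both span an exon junction.
Eif4ebp1, chr8:27260501-27273347, plus strand: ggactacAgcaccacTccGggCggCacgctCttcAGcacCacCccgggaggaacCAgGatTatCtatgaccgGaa
Eif4ebp2, chr10:61435079-61452451, minus strand: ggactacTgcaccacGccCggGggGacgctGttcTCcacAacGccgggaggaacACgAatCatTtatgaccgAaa
They were identical at 59 of 75 bases (78.7%), and again shared no word of 31 bases.

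Overlap with neighbors on the other strand was larger than overlap between paralogs. Rps6kb2 (chr19:4153991-4163354, minus strand) shares 1224 exon bases, 23.69% of its 5167, with Ptprcap, a gene of lymphocytes, and 45 bases with Coro1b. Ptprcap held only 5 to 18 counts per library, while Rps6kb2 held 798 to 2626. Coro1b stood at 49.7 to 73.3 CPM, and its log2 fold change between more and less anxious mice was 0.17 (SE 0.13). Tsc2 shares 693 exon bases (7.20%) with Pkd1, Rps6kb1 shares 155 (1.79%) with Rnft1, and Rptor shares 84 with the antisense gene Rptoros. The libraries were made with a kit that keeps strand, but whether the counting used it is not given in the sources used here, so reads from these shared bases may have gone to either gene. The other genes within the span of a member (Angptl7 and 2 snRNA genes in Mtor, Gm11761 and Gm23663 in Rptor, Gm48086 in Eif4ebp2, Mir6939 in Akt1) shared no exon base with it.

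Levels between genes were compared per kilobase of exon. That length joins the exons of all annotated transcripts of a gene, including forms that encode no protein (Rps6kb2 has 12 transcripts, 3 of them protein coding). The order of the genes depends on this choice of length. Akt1, the kinase that carries growth factor signals to the pathway, had the highest level of the 10, with 28.7 ± 4.74 CPM per kb (SD, n = 11). Tsc2 (10.4 ± 0.577 CPM per kb) and Mtor (9.56 ± 1.01) followed, and neither differed from the other by more than their summed SDs. Rps6kb2 came next with 7.26 ± 2.77 CPM per kb, a spread that reached both Mtor above it and Tsc1 (5.50 ± 0.415) and Rps6kb1 (5.49 ± 0.483) below it. Rptor stood at 3.97 ± 0.400 and Rictor at 3.29 ± 0.165 CPM per kb. Eif4ebp1 (0.935 ± 0.178 CPM per kb) and Eif4ebp2 (0.893 ± 0.245) were lowest and overlapped, with 60 to 111 and 136 to 339 counts per library.

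**Figure D1:**
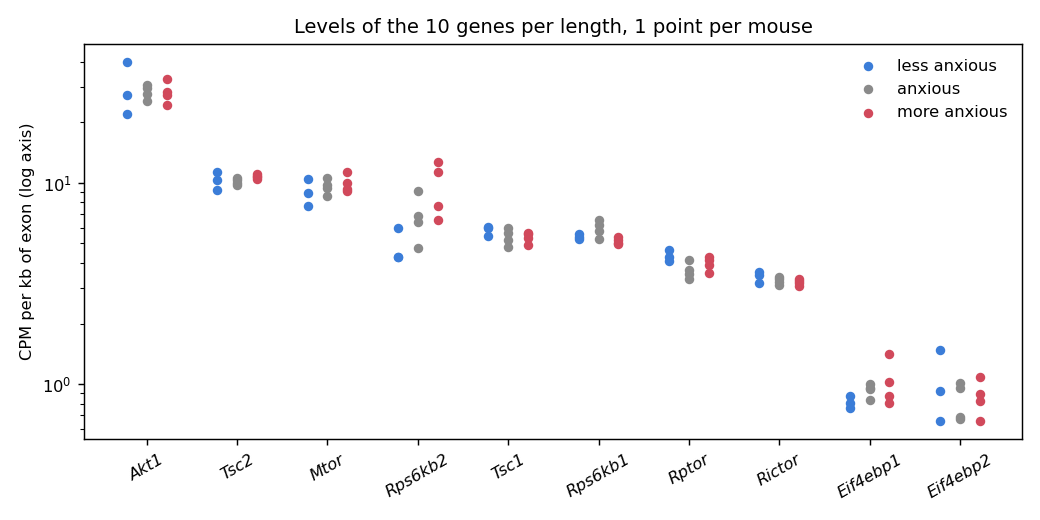
CPM per kb of exon (log axis) of the 10 genes, 1 point per mouse, colored by anxiety group. Akt1 lies highest, the 2 Eif4ebp genes lowest, and the points of Rps6kb2 spread from 4.27 to 12.7 CPM per kb.

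The members differed in how much they varied from mouse to mouse. Rictor had a coefficient of variation (CV) of 5.03% over the 11 mice, Tsc2 5.53%, Tsc1 7.54%, Rps6kb1 8.79%, Rptor 10.1% and Mtor 10.6%, all below the median of 14.3% over the 15891 genes with a mean of at least 1 CPM. Akt1 (16.5%), Eif4ebp1 (19.0%) and Eif4ebp2 (27.5%) lay above that median. Rps6kb2 varied most, with a CV of 38.2%, above that of 94.2% of those genes, and its highest mouse had 2.97 times the CPM of its lowest. The corresponding ratio was 1.31 for Rps6kb1. Rps6kb2 was chosen for its difference between groups of these mice, so its wide spread over them is not independent of that choice.

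Rps6kb2, the S6K2 gene, was lowest in less anxious and highest in more anxious mice. Among less anxious mice it stood at 22.2 (mouse 3), 31.0 (mouse 7) and 22.1 CPM (mouse 12). The anxious mice had 35.4 (mouse 1), 24.5 (mouse 4), 46.9 (mouse 8) and 33.0 CPM (mouse 11). The more anxious mice had 58.9 (mouse 2), 65.5 (mouse 6), 39.6 (mouse 9) and 33.8 CPM (mouse 10). All more anxious mice were above all less anxious mice, although mouse 10 (33.8 CPM) lay close to mouse 7 (31.0 CPM), and the anxious mice overlapped both other groups. Group means were 25.1 ± 5.14 (SD, n = 3), 35.0 ± 9.21 (n = 4) and 49.4 ± 15.2 CPM (n = 4), so the SD rose with the mean. In edgeR's fit the log2 fold change was 0.37 (SE 0.20) from less anxious to anxious, 0.49 (SE 0.18) from anxious to more anxious and 0.86 (SE 0.20) from less to more anxious.

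Rps6kb1, the S6K1 gene, showed no such order. It stood at 45.4, 48.0 and 46.7 CPM in less anxious mice 3, 7 and 12. The anxious mice 1, 4, 8 and 11 had 53.6, 45.5, 56.4 and 49.8 CPM, and the more anxious mice 2, 6, 9 and 10 had 42.9, 45.1, 43.5 and 46.4 CPM. The anxious group held the 3 highest values, and the less and more anxious groups overlapped. The log2 fold change of more against less anxious mice was -0.08 (SE 0.09).

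**Figure D2:**
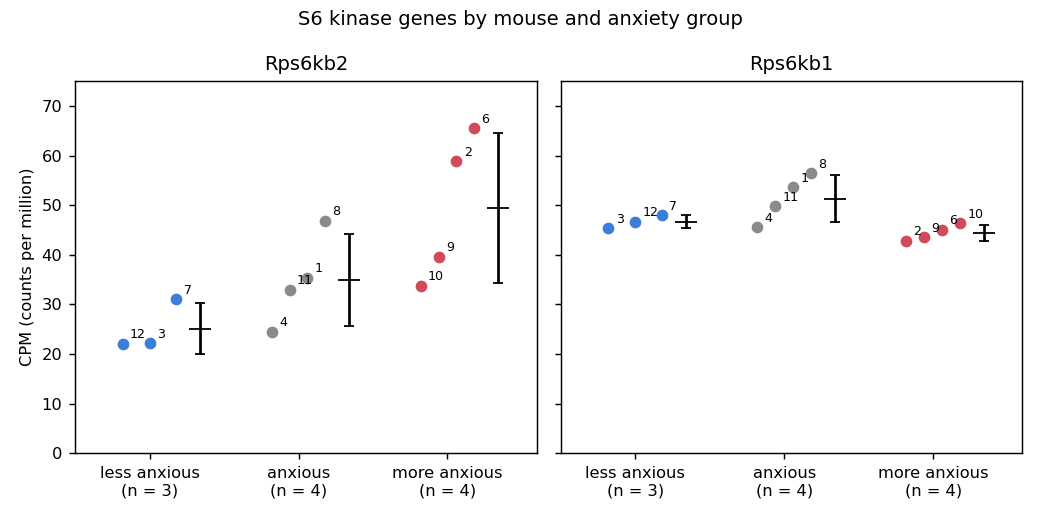
CPM of Rps6kb2 (left) and Rps6kb1 (right) in each mouse, numbered, by anxiety group, with the group mean ± SD as bars at the side. Rps6kb2 ranges from 22.1 to 65.5 CPM and its less and more anxious mice do not overlap, while Rps6kb1 stays between 42.9 and 56.4 CPM.

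The within-mouse difference of the 2 kinases does not depend on the scaling between libraries. It can still carry a difference between libraries in genes rich in G and C, described below. The exons of Rps6kb1 have 41.7% GC and those of Rps6kb2 56.6%. On the log2 CPM scale, Rps6kb2 minus Rps6kb1 was -1.03, -0.63 and -1.08 in less anxious mice 3, 7 and 12. It was -0.60, -0.89, -0.27 and -0.59 in anxious mice 1, 4, 8 and 11, and 0.46, 0.54, -0.14 and -0.46 in more anxious mice 2, 6, 9 and 10. Rps6kb2 therefore exceeded Rps6kb1 in CPM in mice 2 and 6 alone of the 11. Per kb of exon, the ratio of Rps6kb2 to Rps6kb1 averaged 0.898 ± 0.161 (SD, n = 3) in less anxious, 1.13 ± 0.201 (n = 4) in anxious and 1.87 ± 0.591 (n = 4) in more anxious mice. These values describe the groups and carry no test, since Rps6kb2 was chosen by them.

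The other members had smaller estimates than Rps6kb2 between less and more anxious mice. Mtor had a log2 fold change of 0.11 (SE 0.11) in more against less anxious mice, with group means of 91.3, 96.8 and 100.4 CPM in less anxious, anxious and more anxious mice. Of the genes for its partners, Rptor, the scaffold that brings substrates to the kinase, stood at -0.13 (SE 0.10) and Rictor at -0.08 (SE 0.08). Rptor was lowest in the middle group, with means of 58.7, 49.5 and 53.6 CPM in less anxious, anxious and more anxious mice. Its log2 fold change was -0.25 (SE 0.10) from less anxious to anxious and 0.12 (SE 0.09) from anxious to more anxious (edgeR adjusted p = 0.838 over the 3 groups). Tsc1 and Tsc2, whose products together hold back the small GTPase that activates mTOR, stood at -0.11 (SE 0.10) and 0.05 (SE 0.08).

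Akt1 stood at -0.09 (SE 0.16), and its less anxious mice ran from 90.3 to 163.5 CPM, the latter in mouse 7. The genes of the translation repressors had the largest estimates beside Rps6kb2 and wide errors, 0.35 (SE 0.22) for Eif4ebp1 and -0.27 (SE 0.25) for Eif4ebp2. Less and more anxious mice overlapped for each of these 9 genes. Without mouse 7, the estimates of Akt1 and Eif4ebp2 turned to 0.19 and 0.12, and without mouse 3 that of Tsc2 to -0.001. Without mouse 10, that of Eif4ebp1 was 0.15, the same as that of Mtor then.

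**Figure D3:**
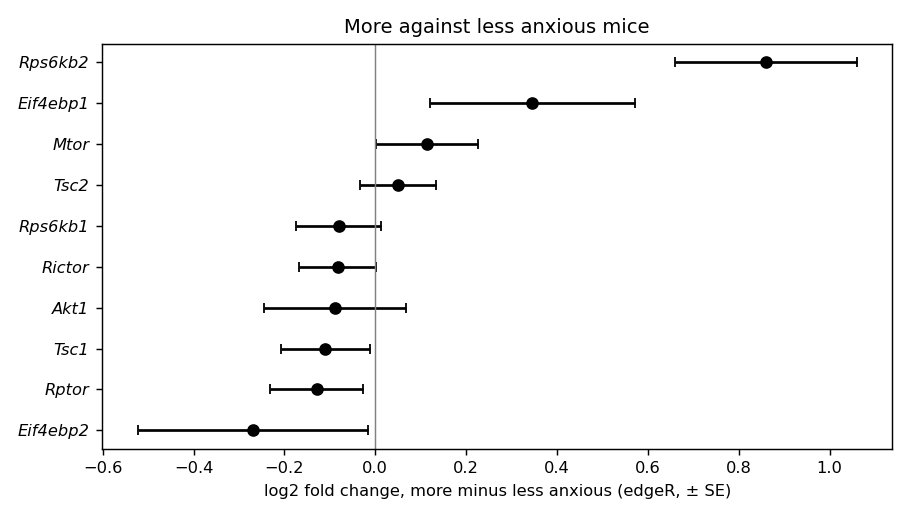
Log2 fold change of more against less anxious mice for each of the 10 genes, with its SE, from edgeR's fit with PC1 as covariate. Rps6kb2 stands at 0.86, and the others lie between -0.27 and 0.35.

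Counts of members past a threshold were read against all genes. With edgeR's quasi-likelihood test of the 3 groups, 0 of 10 members had an adjusted p under 0.05, beside 0.00742% of the 26963 genes tested. At an unadjusted p under 0.05, 1 member was higher in more anxious mice (Rps6kb2) and 0 were lower, beside 3.95% and 2.41% of all genes. Non-overlapping less and more anxious groups were found with 1 member higher and 0 lower, beside 5.27% and 4.75% of genes with a mean of at least 1 CPM. DESeq2's likelihood ratio test of the same model called 1 member, again Rps6kb2, beside 1.30% of the 15107 genes to which it gave an adjusted p. Because the rule used this contrast, nothing is read from the call of Rps6kb2.

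Several measures of the libraries moved with Rps6kb2. Genes rich in G and C were relatively higher in some libraries, and this slope, as log2 change per 10 percentage points of GC, averaged -0.084 in less anxious, -0.002 in anxious and 0.066 in more anxious mice. Its Pearson r with Rps6kb2 over the 11 mice was 0.66 (Spearman's rho 0.65), as a description, and the exons of Rps6kb2 have 56.6% GC against a median of 49.8%. With an offset for GC content the log2 fold change of Rps6kb2 was 0.78. For Rps6kb1, whose exons have 41.7% GC, the estimate went from -0.08 to -0.003 with this offset. That of Akt1 went from -0.09 to -0.24 and that of Rptor from -0.13 to -0.18. Rictor went from -0.08 to -0.006 and Tsc2 from 0.05 to 0.004. With the offset Mtor stood at 0.09, Tsc1 at -0.11, Eif4ebp1 at 0.36 and Eif4ebp2 at -0.29. The part of the slope in the within-mouse difference of the 2 kinases was not tested. The slope also moved with PC1 (r 0.68), and Rps6kb2 with PC1 at r 0.55 (rho 0.41).

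The marker list of astrocytes (Gfap, Aqp4, Slc1a3 and Aldh1l1, 4 of 4 above 1 CPM) summed to 870 to 1074 CPM in less anxious, 707 to 865 in anxious and 651 to 825 in more anxious mice, with an r of -0.61 with Rps6kb2. Microglial markers (4 of 4 above 1 CPM) summed to 160 to 194, 144 to 177 and 132 to 166 CPM (r -0.54). Neuronal markers (6 of 6 above 1 CPM) summed to 4354 to 4695, 4458 to 5094 and 4538 to 5588 CPM, with medians of 4642, 4725 and 5406 CPM and an r of 0.33. Within that list, from less to more anxious mice, Snap25 went from 1723 to 2097 and Slc17a7 of glutamatergic neurons from 829 to 1128 CPM on average, while Gad1 and Gad2 of GABAergic neurons went from 343 to 327 and from 231 to 182 CPM. Their part in the values of Rps6kb2 was not tested, and in such tissue samples fewer cells of a type cannot be told apart from less RNA per cell. The 6 amygdala markers (Rspo2, Lmo3, Prkcd, Cyp26b1, Etv1 and Tac2) were above 1 CPM on average and summed to between 256 and 566 CPM (r -0.29). Those of the striatum summed to between 72.2 and 380 CPM (r -0.23), with medians of 247 in less anxious, 84.3 in anxious and 179 CPM in more anxious mice. Those of the pituitary summed to 3.92 to 4.64 in less anxious, 2.67 to 56.5 in anxious and 2.26 to 2.88 CPM in more anxious mice (r -0.48). In less anxious, anxious and more anxious mice, oligodendrocyte markers summed to 2095 to 2738, 1294 to 2483 and 1655 to 2297 CPM (r -0.36 with Rps6kb2). Endothelial markers summed to 90.8 to 132, 63.1 to 117 and 62.9 to 82.8 CPM (r -0.22). Choroid plexus markers, 1 of 4 below 1 CPM on average, summed to 10.0 to 15.9, 7.70 to 10.6 and 5.89 to 10.9 CPM (r -0.30).

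Of 88 further genes of the pathway, all of which passed the filter, 0 were called by edgeR across the groups, 32 had a positive and 56 a negative log2 fold change of more against less anxious mice, and the median was -0.04, beside 0.004 over all genes tested. Over all 26963 genes tested, 13617 estimates were positive and 13346 negative. At an unadjusted p under 0.05, 2 genes were higher and 3 lower, beside 3.95% and 2.41% of all genes. Non-overlapping groups were found for 1 higher and 6 lower genes of the 88, beside 5.27% and 4.75% of genes with a mean of at least 1 CPM. DESeq2 called 2 of the 88, beside 1.30% of the genes it gave an adjusted p. These were Akt1s1 and Pik3r3, which the study also selected on these samples, so their direction is not independent evidence.

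Akt1s1 encodes PRAS40, an inhibitory subunit of the raptor complex that AKT phosphorylates. It averaged 25.4, 35.1 and 44.8 CPM in less anxious, anxious and more anxious mice, a log2 fold change of 0.77 (SE 0.14, edgeR adjusted p = 0.267). Telo2, whose product helps assemble the mTOR complexes, averaged 19.1, 24.3 and 21.9 CPM (0.26, SE 0.15, edgeR adjusted p = 0.757). The 8 further complex subunits as a list had 2 positive and 6 negative estimates, with a median of -0.03.

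Among the genes for the PI3K input, 10 of 14 estimates were negative, beside 13346 of 26963 over all genes tested. Pik3ca, a catalytic subunit of PI3K, averaged 55.1, 42.8 and 42.5 CPM (log2 fold change -0.29, SE 0.09, edgeR adjusted p = 0.586), and Pik3r3, a regulatory subunit, 49.2, 45.1 and 38.8 CPM (-0.33, SE 0.09, edgeR adjusted p = 0.532). Both had all more anxious mice below all less anxious mice. Prkab2, a subunit of the energy sensor AMPK, averaged 47.1, 40.6 and 37.8 CPM (-0.32, SE 0.11, edgeR adjusted p = 0.756). The exons of Pik3ca, Pik3r3 and Prkab2 have 41.1%, 45.8% and 46.9% GC, and those of the higher genes Akt1s1 and Telo2 63.7% and 56.3%. The part of the GC slope in these estimates was not tested. Of the 30 genes of amino acid sensing at the lysosome 0 were past an unadjusted p of 0.05, and the same held for the 16 genes of translation and other outputs and the 8 related S6 kinase genes. The 3 genes of the TSC complex and RHEB list (Tbc1d7, Rheb and Rhebl1) had a median of 0.10 and 0 past that level.

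Over the 11 mice, the genes most like Rps6kb2 in log2 CPM among 15890 others were Cacna1h, a T-type calcium channel (r 0.93), Kat5, a histone acetyltransferase (0.93), Ewsr1, an RNA-binding protein gene (0.92), Efna3, an ephrin (0.91), and Tnrc18 (0.91). The most opposite were Slc35g1 (r -0.95), a gene without an annotated name, ENSMUSG00000059511 (-0.93), the pseudogene Gm8430 (-0.92), Pik3cg, the gamma catalytic subunit of PI3K (-0.90), and Nedd1 (-0.89). These are the extremes of many comparisons and are given as a description. Among the 10 members themselves, 10 of 45 pairs had an r above 0.6 and 2 had one below -0.5, with a median of 0.19. The 2 cutoffs differ in size and pairs of other genes were not counted, so nothing is read from these counts. Of the other members Mtor came nearest to Rps6kb2 (r 0.64, rho 0.63), though 4.42% of all genes had a higher r, while Rps6kb1 had an r of -0.02 (rho -0.23). The highest pair was Eif4ebp2 and Akt1 (r 0.77, rho 0.63), which were both highest in mouse 7.

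The behavior measures were taken on the mice and tested each gene along a number instead of a group. In edgeR fits of 7 standardized measures over all genes, 0 of 70 pairs of a member and a measure had an adjusted p under 0.05, beside 0.00796% of all gene and measure pairs. DESeq2's likelihood ratio test also called 0 of the 70. At an unadjusted p under 0.05 there was 1 pair, beside 6.35% of all pairs, and the adjusted edgeR p-values of the 70 were 0.438 or higher.

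**Figure D4:**
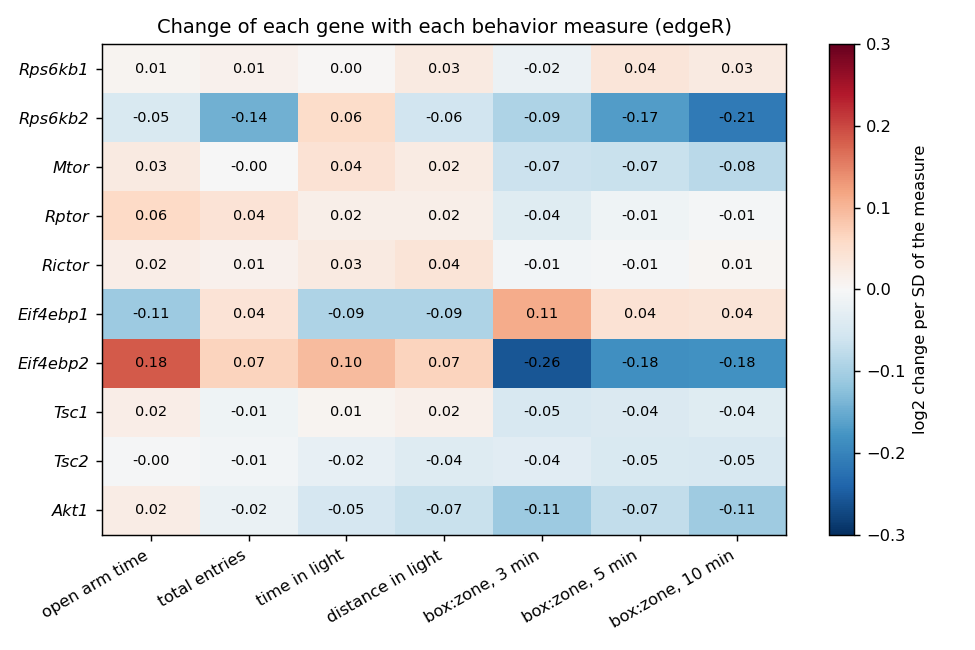
Log2 change of each of the 10 genes per SD of each of 7 behavior measures, from edgeR, as a color and a number in each cell. The values run from -0.26 (Eif4ebp2 with the 3 min ratio) to 0.18 (Eif4ebp2 with open arm time).

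The pair was Eif4ebp2, the gene of a translation repressor found in neurons, with the SIT box:zone ratio at 3 min. Eif4ebp2 stood at 3.81, 8.51 and 5.37 CPM in less anxious mice 3, 7 and 12, at 5.52, 3.86, 3.95 and 5.86 CPM in anxious mice 1, 4, 8 and 11, and at 4.75, 6.26, 5.15 and 3.78 CPM in more anxious mice 2, 6, 9 and 10. Mouse 7, the highest, also had the lowest 3 min ratio, 0.236, and mouse 4 has no 3 min value. The change was -0.26 log2 units per SD of the ratio (SE 0.08), with an adjusted p of 0.438 in edgeR's test. Pearson's r was -0.73 (two-sided permutation p = 0.016, 100000 permutations, n = 10) and Spearman's rho -0.70 (permutation p = 0.0308). Without the 2 mice farthest from the median ratio (3 and 9) r was -0.88, and without mouse 7 it was -0.55 and no longer past 0.05. At 5 and 10 min r was -0.46 and -0.45 (permutation p = 0.162 and 0.169, n = 11), so the relation did not pass the correction over all genes at any time.

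Rps6kb2 itself had no relation to behavior that passed a test over the 11 mice. Its Pearson r ran from -0.35 with total entries to 0.05 with time in light, and the lowest permutation p over the 7 measures was 0.293. Its change per SD ran from -0.21 (SE 0.16) with the 10 min ratio to 0.06 (SE 0.14) with time in light. For the difference Rps6kb2 minus Rps6kb1, r ran from -0.37 (rho -0.22) with total entries to 0.03 (rho -0.41) with time in light, and 0 of 7 relations had a Benjamini-Hochberg adjusted permutation p of r under 0.05 (lowest 0.774, and lowest 0.268 before adjustment). Without the 2 mice farthest from the median of a measure, the r of the difference ran from -0.74 with distance in light to 0.28 with the 5 min ratio.

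The values with the EPM and LD measures moved most when mouse 6 or mouse 2, both more anxious, was left out. Without mouse 2 the r of the difference was 0.05 with open arm time, 0.02 with total entries, 0.28 with time in light and 0.05 with distance in light, and 0 of 7 relations passed. Mouse 6 had the highest Rps6kb2 of the 11 together with the highest open arm time (29.2%), time in light (46.6%) and distance in light (41.9%). Without mouse 6, the r of the difference was -0.71 with open arm time, -0.72 with total entries, -0.75 with time in light and -0.83 with distance in light, and 4 of 7 relations had an adjusted permutation p under 0.05 (0.0169 for distance in light and 0.0396 for each of the others, n = 10). The same 4 measures had r values of -0.65, -0.67, -0.67 and -0.73 with Rps6kb2 alone. Across all genes the edgeR adjusted p for Rps6kb2 without mouse 6 was 0.624, 0.672, 0.337 and 0.229, so none passed. In those 4 fits 6.74%, 6.51%, 10.1% and 10.8% of all genes had an unadjusted edgeR p under 0.05. The adjustment over 7 relations does not cover the choice of mouse, and leaving out any other mouse gave no relation past the adjusted threshold. PC2 was taken for its relation to these same 4 measures and Rps6kb2 was chosen along PC2, so these relations are not independent of that choice. The SIT ratios gave r values between -0.29 and 0.03 with the difference when mouse 6 was left out.

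**Figure D5:**
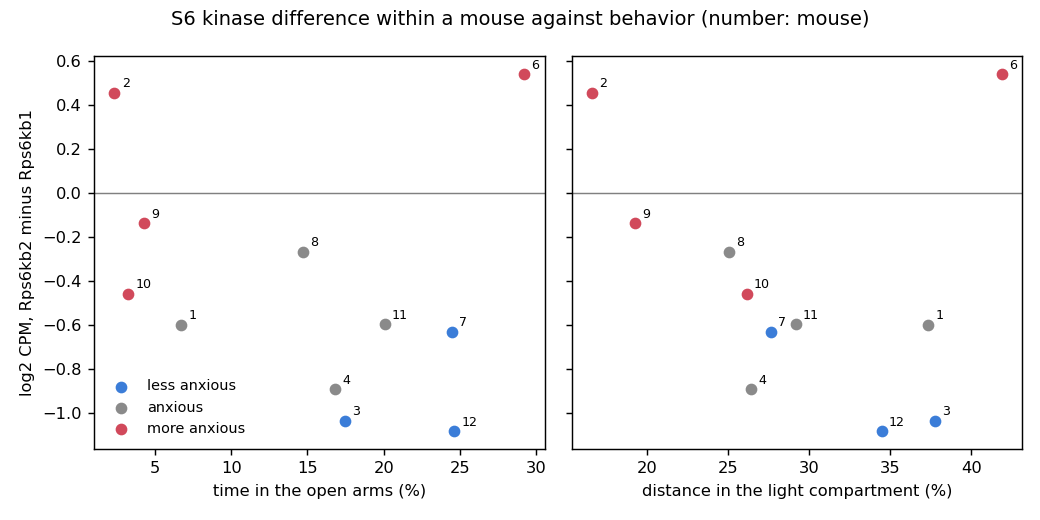
Within-mouse difference of log2 CPM, Rps6kb2 minus Rps6kb1, against time in the open arms (left) and distance in the light (right), 1 numbered point per mouse, colored by anxiety group. Mouse 6 lies apart at the upper right of both panels, at 29.2% and 41.9%, with a difference of 0.54.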

How the data were processed

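Transcript abundance was quantified by the authors with Salmon and collapsed to genes by tximport, and the estimated counts (expected counts) were deposited as whole numbers without normalization. The submitters' processing notes also name CASAVA, DESeq2 and mm10, and tool versions and the use of strand are not given in the sources used here. The anxiety groups and measures came from the labels, and no batch is named in them. The members and gene lists were chosen with earlier results of these data known. Named genes are all members, genes that overlap a member, up to 5 pathway genes per direction with the smallest unadjusted p under 0.05, the 5 genes most and the 5 least like Rps6kb2, and markers. The 3 genes of the TSC list were named after their values were seen.

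Groups were tested with edgeR 4.0.16 (quasi-likelihood F-test, robust, TMM, PC1 as covariate, 2 degrees of freedom) in R 4.3.3, on genes with at least 10 reads over 11 mice, with Benjamini-Hochberg adjustment over all genes. DESeq2 1.42.0 was an alternative. Log2 CPM used a prior count of 2. Correlations used 100000 two-sided permutations in scipy 1.17.1. Lengths, GC content and sequences came from GENCODE M21 (GRCm38). Nothing in the labels says more of the mice than that they are separate samples, so p-values measure the spread between these samples. The group fits of edgeR and DESeq2 and edgeR's fit of open arm time were run on simulated counts, with the outcome not given here. The permutation correlations and the GC offset were not run on simulated data. Other alternatives were the scaling, the count filter, the robust option, the covariate, a GC offset, mouse 5 and each mouse left out. Protein sequences and the promoter of Rps6kb2 were not used here.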

Additional observations from a re-analysis of the deposited data

How the results depend on the processing

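The log2 fold change of Rps6kb2 between more and less anxious mice stayed between 0.78 and 0.99 under every alternative run. Each alternative kept the same groups, and Rps6kb2 was chosen by them, so this range is a description. Its edgeR adjusted p was 0.497 in the main fit and 0.750 with the GC offset. As each mouse was left out, that p ran from 0.196 (without mouse 4) to 0.999 (without mouse 9). The count of members called across the groups was 0 under edgeR with every scaling, filter, covariate and mouse left out, and 1 with DESeq2's likelihood ratio test. For the 88 pathway genes it was 0 under the same edgeR alternatives and 2 with DESeq2. For the 70 pairs of a member and a measure it was 0 throughout. The count of relations of the Rps6kb2 minus Rps6kb1 difference past the adjusted threshold was 0 with mouse 5 included and with a prior count of 0.5, and ran from 0 to 4 as each mouse was left out, the 4 without mouse 6. Pathway genes higher at an unadjusted p under 0.05 numbered 2 with all 11 mice, 5 without mouse 3, and 1 without mouse 8, 9 or 12 or without PC1. Lower ones numbered 3 with all 11 mice, 2 with the GC offset, and 2 to 4 as each mouse was left out. Pairs of a member and a measure at that level numbered 1 with all 11 mice, 5 without mouse 6, 4 without mouse 4, 2 without mouse 9 or with PC1, and 0 without mouse 7. Without mouse 6, between 6.29% (5 min ratio) and 10.8% (distance in light) of all genes were at that level in a measure's fit. For the other alternatives the share over all genes is not given here, so nothing is read from these shifts in the counts. Over all genes, edgeR called 2 across the groups and between 0 and 9 under its alternatives, and DESeq2 called 197. The causes were not tested. No paired analysis was possible because each mouse belongs to only 1 group. With 60 to 111 counts per library, Eif4ebp1 is limited most by depth, and counting intervals would cover counting error only.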

Other observations

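Mouse 5, which the study left out as an outlier and the labels put in no anxiety group, lay within the range of the other 11 mice for 9 of the 10 genes. It had 32.1 CPM of Rps6kb2, 45.7 CPM of Rps6kb1 and 101 CPM of Mtor, on factors of all 12 libraries. Its Tsc1 level of 79.9 CPM was above the highest of the others, 71.6 CPM. Among 22 combinations of a gene or the kinase difference with a group of 4 mice, 0 had a mouse that lay apart by Dixon's criterion.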
